A study of Mus musculus with 2 samples.

Results

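CC chemokines are small secreted proteins that guide leukocytes, and the genes described here are 10 of them: Ccl2, Ccl3, Ccl4, Ccl5, Ccl7, Ccl8, Ccl9, Ccl11, Ccl17 and Ccl20. They are 10 of the 23183 gene symbols measured and 10 of the 24 CC ligand genes that the expression tables list. The 10 were chosen by name with the difference between the 2 libraries of the study already known, so the expression values that chose them are given below as a description with no test. RNA sequencing was done on mouse cavernous endothelial cells (MCECs), primary cells grown out of the erectile tissue of 8-week-old male C57BL/6J mice and used at passages 2 to 4. Both cultures were grown in M199 medium with 20% serum, heparin and VEGF, starved of serum for 24 h and then kept in 30 mM glucose (high glucose, HG), a culture model of diabetes. The HG+HBS cells received the vehicle, HEPES-buffered saline, and the HG+PC-NVs cells received 1 µg/mL of PC-NVs, vesicle-like particles made by pressing mouse cavernous pericytes through membrane filters. The labels give 5 days of glucose, while the methods give 72 h of high glucose and 24 h of PC-NVs. There was 1 library per condition, so no difference has a replicate check, no p-value is given, and how far 2 cultures treated alike would differ is not known. Below, vehicle stands for the HG+HBS library and PC-NV for the HG+PC-NVs library.

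The proteins of this family carry a pair of adjacent cysteines near the amino terminus, bind heparan sulfate on cell surfaces and matrix, and signal through G protein-coupled receptors of the Ccr group on monocytes, macrophages, T cells, eosinophils and other leukocytes. Ccl2, also called monocyte chemoattractant protein, acts through Ccr2 and is made by endothelial cells, fibroblasts and macrophages under inflammatory stimulation. Transcription of many of these genes is driven by NF-kB and AP-1, and AU-rich elements in the mRNA of several of them limit how long the transcript lasts.

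The values are log2(normalized FPKM + 1), where FPKM is a fragment count scaled to transcript length and to sequencing depth, so levels of different genes can be set side by side. The worth of 1 fragment, read from the spacing of low values, put the depth at about 14500000 fragments with vehicle and 12700000 with PC-NVs. These are sizes on the normalized scale, and any scaling by the normalization would enter them, so they are not measured depths. Intervals are 95% and cover counting error only. Of the 11785 genes with a mean log2 level of at least 1, called tested here although no test was possible, 281 were over 2-fold higher in the PC-NV library (2.38%) and 94 over 2-fold lower (0.798%), and the median log2 ratio was -0.01. Most markers went against the cell label. The 10 endothelial markers summed to 37.3 FPKM with vehicle and 29.7 with PC-NVs. Of them 8, among them Pecam1, Kdr and Vwf, were at or below 1.05 FPKM. The others were Cdh5, at 5.05 and 5.73 FPKM, and Eng, at 29.0 and 21.4 FPKM, which made up most of the sum. The 6 fibroblast markers summed to 1839 and 2196 FPKM. The higher second sum came from Dcn, at 623 and 1283 FPKM, and the other 5 fibroblast markers had log2 ratios below 0, none past 2-fold. The cultures are therefore called by their label without reading the chemokine values as those of endothelial cells. In bulk RNA, a change in the number of cells of a type and a change in RNA per cell cannot be told apart.

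Summed over the 10 genes, CC chemokine mRNA was 395 FPKM with vehicle and 2635 FPKM with PC-NVs, 6.68 times as much. That was 0.0756% of all FPKM with vehicle and 0.454% with PC-NVs. Of the 10 genes, 8 passed the filter on low values, and 7 of these were over 2-fold higher in the PC-NV library, 0 were over 2-fold lower and 1, Ccl11, was neither, beside 2.38% of all tested genes that were over 2-fold higher. Of the same 8, 3 were over 4-fold higher (Ccl2, Ccl3 and Ccl7), beside 0.636% of all tested genes. The median log2 ratio of the 8 was 1.65. Because the genes were chosen with these ratios known, nothing is read from those counts.

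**Figure D1:**
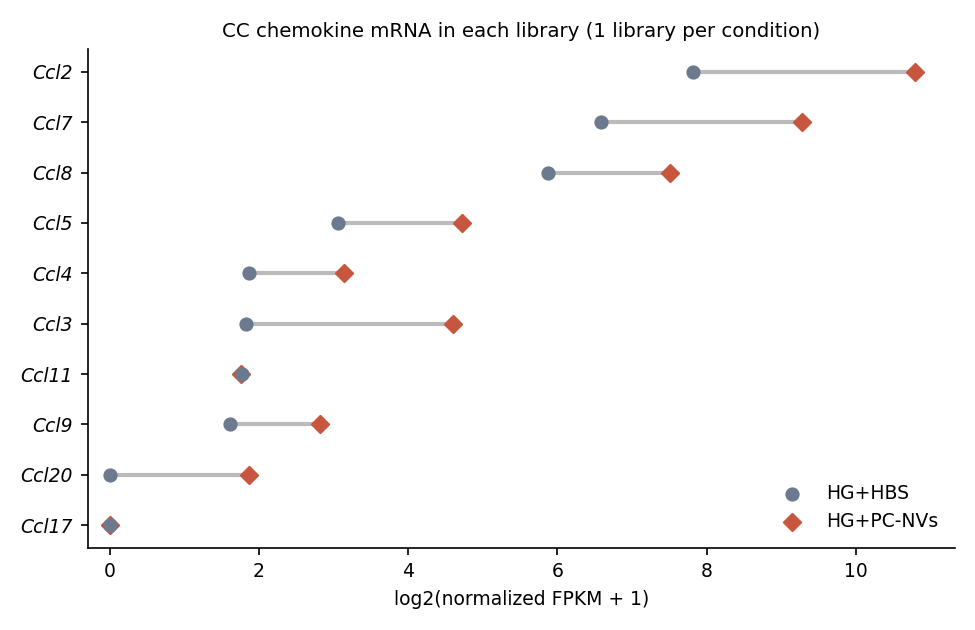
Level of each of the 10 CC chemokine genes in HG+HBS (circles) and HG+PC-NVs (diamonds), as log2(normalized FPKM + 1), 1 library each. Ccl2, Ccl7 and Ccl8 are the highest in both libraries, the points of Ccl11 coincide, and Ccl17 is at 0.

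Ccl2, Ccl7 and Ccl8, which attract monocytes and other leukocytes, made up 95.7% of the summed level with vehicle and 97.4% with PC-NVs. Ccl2 was at 224 FPKM with vehicle and 1768 FPKM with PC-NVs. It was thus the more abundant in the PC-NV library by a factor of 7.88 (interval 7.52 to 8.25, from about 2030 and 13616 fragments), a log2 ratio of 2.97, and it moved from place 315 to place 38 among all 23183 symbols ordered by level. Ccl7, a chemokine that binds Ccr1, Ccr2 and Ccr3, was at 95.2 FPKM with vehicle and 618 FPKM with PC-NVs. Its ratio was 6.49 (6.04 to 6.99, from about 844 and 4664 fragments), a log2 ratio of 2.69, and its place changed from 798 to 144. The intervals of Ccl2 and Ccl7 do not overlap, and the ratio of Ccl2 to Ccl7 was 2.36 with vehicle and 2.86 with PC-NVs. Ccl8, in the mouse a ligand of Ccr8, was at 57.9 FPKM with vehicle and 181 FPKM with PC-NVs, a smaller ratio of 3.13 (2.72 to 3.60, from about 270 and 702 fragments). By the size of the log2 ratio, Ccl2 stood at place 24, Ccl7 at place 38 and Ccl8 at place 107 of the 11785 tested genes.

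Ccl11, the eosinophil attractant eotaxin and a ligand of Ccr3, was at 2.41 FPKM with vehicle and 2.37 FPKM with PC-NVs. Its ratio was 0.984, with an interval from 0.584 to 1.64 that rests on about 31.2 and 26.4 fragments. At this depth a difference inside that interval was not detectable, while the ratios of Ccl2, Ccl7 and Ccl8 lie outside it.

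The inflammatory chemokines Ccl3, Ccl4, Ccl5 and Ccl9 were present at far lower levels and each was over 2-fold higher in the PC-NV library. Ccl3, or macrophage inflammatory protein 1 alpha, a ligand of Ccr1, was at 2.55 FPKM with vehicle and 23.3 FPKM with PC-NVs. That was the largest finite ratio among the 10 genes, 9.15, but with the wide interval of 5.93 to 14.6, since only about 21.3 fragments stood behind the HG+HBS value and 166 behind the other. This interval holds the ratios of both Ccl2 and Ccl7, so the order of the 3 by ratio is not set by these data. Ccl4, macrophage inflammatory protein 1 beta, was at 2.66 FPKM with vehicle and 7.84 FPKM with PC-NVs, a ratio of 2.95 (1.73 to 5.08). The lower end of the Ccl4 interval is under 2-fold. Ccl3 and Ccl4 are neighbours on the chromosome and stood level in the vehicle library, with a Ccl3 to Ccl4 ratio of 0.959, against 2.98 in the PC-NV library. The intervals of their ratios between libraries do not overlap.

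Ccl5, also called RANTES and a ligand of Ccr1 and Ccr3, was at 7.36 FPKM with vehicle and 25.4 FPKM with PC-NVs, a ratio of 3.46 (2.34 to 4.94). Ccl9, a Ccr1 ligand of mice, was at 2.06 FPKM with vehicle and 6.07 FPKM with PC-NVs. Its ratio of 2.94 (2.29 to 3.79) was close to that of Ccl4, with a narrower interval because its longer transcript of 3006 nt gave about 84.3 and 215 fragments.

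Ccl20 and Ccl17 did not pass the filter. Ccl20, the ligand of Ccr6, was at 0.00206 FPKM in the vehicle library, under the 0.348 FPKM that 3 fragments would give, and at 2.66 FPKM in the PC-NV library, about 19.5 fragments. The PC-NV value of Ccl20 was 7.65 times that vehicle floor. This figure leaves out the counting error of the PC-NV value, whose interval is 1.67 to 4.22 FPKM, so it is not a lower bound. The mean log2 level of Ccl20, 0.94, was just short of the filter. Ccl17, a Ccr4 ligand that attracts T cells, was at 0.000178 FPKM with vehicle and 0 with PC-NVs, and both are under the 3-fragment floors of 0.638 and 0.767 FPKM, so no ratio is given.

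**Figure D2:**
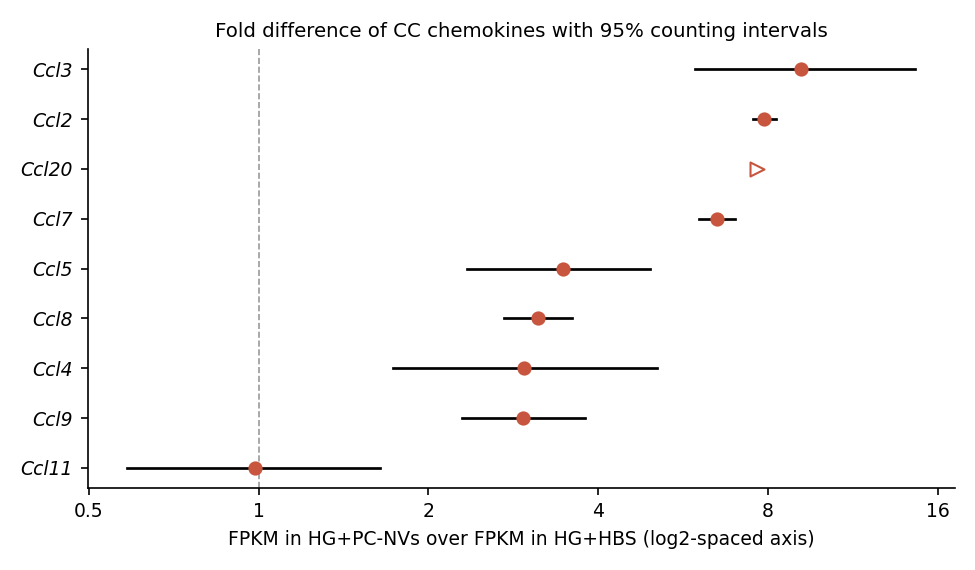
Ratio of HG+PC-NVs to HG+HBS for the members above the floor, on a log axis, with 95% counting intervals. The interval is narrow for Ccl2 (7.52 to 8.25) and wide for Ccl3 (5.93 to 14.6), and that of Ccl11 spans no change. The open marker of Ccl20 at 7.65 is its PC-NV value over the vehicle floor, without counting error.

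In HG+HBS the order of levels was Ccl2, Ccl7, Ccl8 and Ccl5, each with a counting interval clear of the next, and then Ccl4, Ccl3, Ccl11 and Ccl9 between 2.66 and 2.06 FPKM, whose intervals overlap. In HG+PC-NVs Ccl2, Ccl7 and Ccl8 kept their order and stood clear of each other. Ccl5 at 25.4 FPKM (20.7 to 30.7) and Ccl3 at 23.3 FPKM (19.9 to 27.2) came next with overlapping intervals, then Ccl4 (5.70 to 10.4) and Ccl9 (5.28 to 6.93), and then Ccl20 (1.67 to 4.22) and Ccl11 (1.53 to 3.43). Within each of these pairs the order is not resolved.

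**Figure D3:**
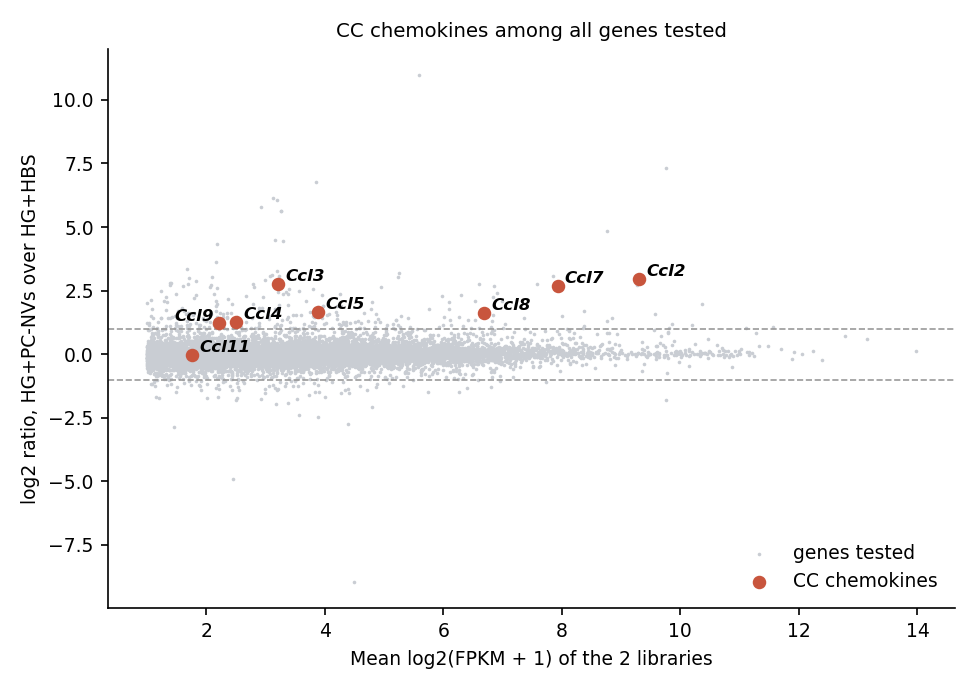
Log2 ratio of HG+PC-NVs over HG+HBS against the mean log2(normalized FPKM + 1) of both libraries for the 11785 tested genes (grey), with the 8 tested CC chemokines in red. Dashed lines mark 2-fold, and Ccl11 at -0.02 is the single labelled gene between them.

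Of the 10 genes, 8 lie in one stretch of chromosome 11 that holds a pair of chemokine clusters. Ccl2 (chr11:82035571-82037453, plus strand, GRCm38), Ccl7 (chr11:82045712-82047525), Ccl11 (chr11:82057823-82062955) and Ccl8 (chr11:82115185-82116799) are all on the plus strand within 81.2 kb, and 8.3 kb separate the end of Ccl2 from the start of Ccl7. Ccl11 and Ccl12 lie between Ccl7 and Ccl8. Ccl12, another Ccr2 ligand of mice, was at 1.81 FPKM with vehicle and 2.14 FPKM with PC-NVs, a ratio of 1.18 (0.490 to 2.93). Thus the genes over 2-fold higher were not one unbroken run in this cluster: Ccl2, Ccl7 and Ccl8 were, and the pair between them was not. The counting interval of Ccl12 still reaches past 2-fold. Ccl1, the next CC ligand gene on that side, was at 0 in both libraries.

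The second cluster runs over 138.9 kb, from Ccl5 (chr11:83525778-83530518, minus strand) through Ccl9 (chr11:83572919-83578636, minus strand) and Ccl3 (chr11:83647844-83649355, minus strand) to Ccl4 (chr11:83662584-83664683, plus strand). Ccl6, a Ccr1 ligand located between Ccl9 and Ccl3, was at 7.87 FPKM with vehicle and 13.3 FPKM with PC-NVs. Its ratio of 1.70 (1.37 to 2.10) did not pass 2-fold. On the side of Ccl5 lie Heatr9, at 0 in both libraries, and beyond it Taf15, a general transcription factor subunit, at 30.5 and 37.7 FPKM, a log2 ratio of 0.30. On the side of Ccl4 lie Wfdc17, at 56.6 and 67.7 FPKM, a log2 ratio of 0.25, and Wfdc18, at 0.197 and 0 FPKM. Around the first cluster Asic2 was at 0.505 and 0.0324 FPKM, a log2 ratio of -0.54, and the other 3 flanking genes in the files were at or below 0.113 FPKM in both libraries. Ccl20 (chr1:83116766-83119167) and Ccl17 (chr8:94810453-94812036) lie elsewhere.

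**Figure D4:**
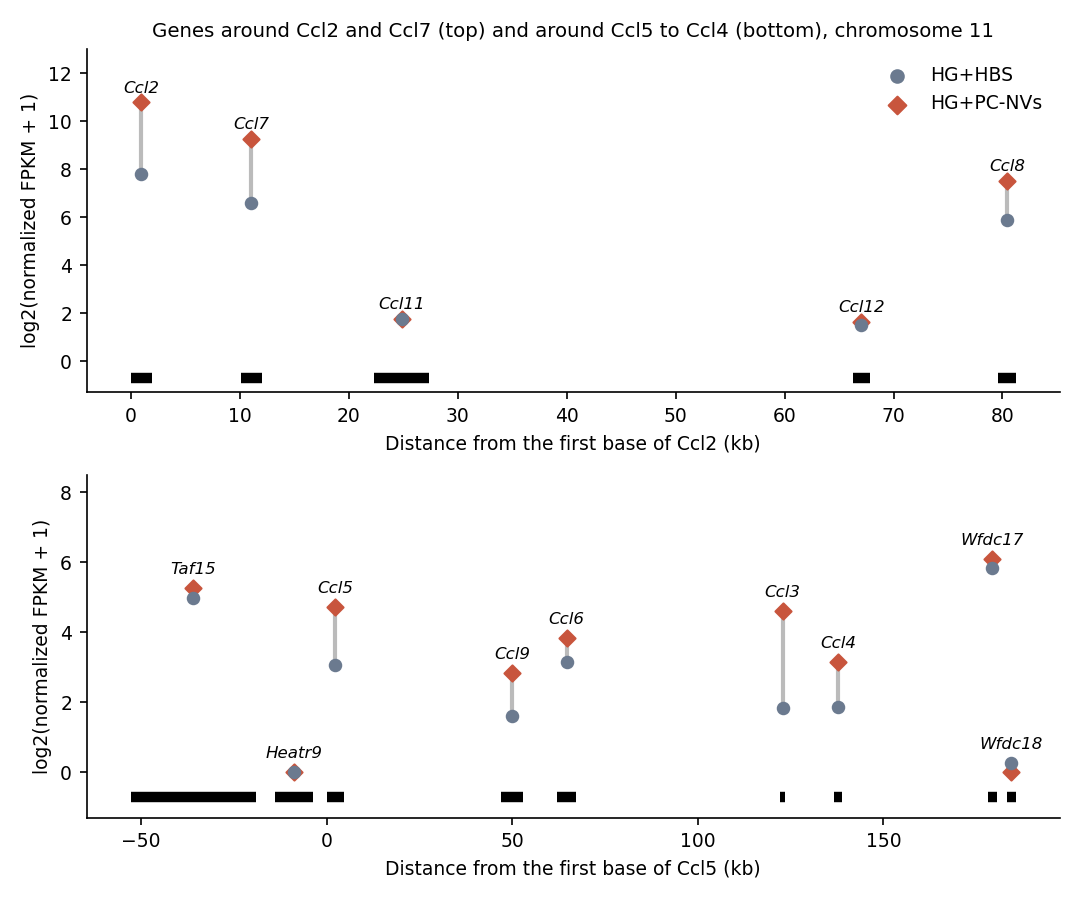
Levels, as log2(normalized FPKM + 1), of the genes of the Ccl2 to Ccl8 cluster (top) and of the Ccl5 to Ccl4 cluster with its flanking genes (bottom) by distance along chromosome 11, with each gene's extent as a black bar. Circles are HG+HBS and diamonds HG+PC-NVs, and Ccl11 and Ccl12 lie low between Ccl7 and Ccl8. Genes flanking the top cluster are not drawn.

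The transcripts of these genes are related, which matters for reads that could fall on more than 1 of them. In the annotated transcripts, 0 of the 100-base windows of any of the 10 genes occur in another gene, the windows having the length of the reads before trimming. Only exact matches were counted, so reads shortened by trimming or placed with mismatches were not covered. The longest run that Ccl2 and Ccl7 share is 23 nt, that of Ccl9 and Ccl6 is 25 nt, and that of Ccl8 and Ccl7 is 17 nt.

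Promoter sequence was at hand for 5 of the 10 genes, Ccl20, Ccl9, Ccl8, Ccl3 and Ccl17, and the 120 bases before each start site are printed because they let the gene at 0 (Ccl17) be set beside those that were higher in the PC-NV library. They come from RefSeq, build GRCm38.p6, and read 5′ to 3′ on the strand of the gene. Capitals mark matches, on either strand, to the NF-kB consensus, to the AP-1 letters TGANTCA, or to TATAAA.
Ccl20: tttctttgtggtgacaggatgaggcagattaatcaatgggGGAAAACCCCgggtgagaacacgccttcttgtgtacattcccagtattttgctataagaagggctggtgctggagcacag
Ccl9: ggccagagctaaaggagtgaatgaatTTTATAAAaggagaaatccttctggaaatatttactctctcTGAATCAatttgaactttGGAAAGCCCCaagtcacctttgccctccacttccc
Ccl8: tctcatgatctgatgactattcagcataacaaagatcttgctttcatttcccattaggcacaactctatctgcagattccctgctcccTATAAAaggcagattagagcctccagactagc
Ccl3: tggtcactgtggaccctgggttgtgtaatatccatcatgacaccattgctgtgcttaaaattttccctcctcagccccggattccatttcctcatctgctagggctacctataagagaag
Ccl17: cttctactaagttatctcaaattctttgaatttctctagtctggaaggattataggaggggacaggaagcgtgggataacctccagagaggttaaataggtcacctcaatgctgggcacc

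The windows are chr1:83116646-83116765 for Ccl20, chr11:83578637-83578756 (minus strand) for Ccl9, chr11:82115065-82115184 for Ccl8, chr11:83649379-83649498 (minus strand) for Ccl3 and chr8:94810333-94810452 for Ccl17. For Ccl3 the start site behind the window lies upstream of the gene start given above, chr11:83649355. Its window therefore leaves out the bases next to that gene start, while the other windows abut their genes. Ccl20 has 1 NF-kB match, on its minus strand, from 80 to 71 bases before the start. Ccl9 has an NF-kB match from 35 to 26 bases before the start, an AP-1 match from 53 to 47 bases before it, and overlapping TATAAA matches further up. Ccl8 has TATAAA from 32 to 27 bases before the start, the usual place of a TATA box. Among the 32851 promoters of the same length in that table, 3.65% hold the NF-kB consensus in these 120 bases, 3.41% hold TGANTCA and 6.34% hold TATAAA. Ccl3 and Ccl17 hold none of the letters searched in this window, and the core of the interferon response element was found in none of the 5 windows, against 1.22% of all promoters. A match is a stretch of letters and says nothing here about binding.

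In the 3′ UTR, the AU-rich letters TATTTAT were present in 3 of the 10 genes, Ccl3, Ccl4 and Ccl20, against 21.1% of 19393 transcripts with a 3′ UTR of 165 to 2465 nt. The upper end of that range is set by Ccl9 alone, and the next longest, Ccl11, has 644 nt. A longer 3′ UTR has more places for a match, and the share counts transcripts and not genes, so it is not a like share. Ccl2, with a 3′ UTR of 275 nt, has 0 matches to TATTTAT and 1 to the shorter letters ATTTA. Ccl7 has 2 matches to ATTTA and Ccl11 and Ccl9 have 5 each, while Ccl5, Ccl8 and Ccl17 have 0. The share of transcripts with ATTTA was not counted.

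The other 14 CC ligand genes added little: their sum was 18.3 FPKM with vehicle and 23.1 FPKM with PC-NVs, and the 10 genes held 95.6% and 99.1% of all CC ligand FPKM. Of these 14, 8 were under 0.01 FPKM in both libraries and 4 were tested, with 0 called in either direction. Beside Ccl6 and Ccl12 the tested ones were Ccl25, a thymus and gut chemokine, at 2.73 and 2.30 FPKM, and Ccl27a, a skin chemokine, at 5.38 and 5.21 FPKM. Ccl19, a ligand of Ccr7, was at 0.131 and 0 FPKM, under the floor of 3 fragments in both libraries. Ccl28, which did not pass the filter, was lower in the PC-NV library, at 0.346 and 0.0892 FPKM. Its ratio was 0.258 (0.0907 to 0.721), from about 17.8 and 3.99 fragments.

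The receptors of these ligands were mostly scarce. Of 11 CC receptor genes 5 were under 0.01 FPKM in both libraries. Ccr1, which binds Ccl3, Ccl5, Ccl7 and Ccl9, was at 9.11 FPKM with vehicle and 36.3 FPKM with PC-NVs, a ratio of 3.98 (3.53 to 4.48), and was the only CC receptor that passed the filter. Ccr2, the receptor of Ccl2, was at 0.161 and 0.704 FPKM.

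The atypical receptors, which bind chemokines without G protein signalling, were mixed. Ackr4, which takes up Ccl19, Ccl21 and Ccl25, was at 13.2 FPKM with vehicle and 4.62 FPKM with PC-NVs, a ratio of 0.349 (0.287 to 0.427). Ackr3, a receptor for Cxcl12, was at 1.04 and 3.25 FPKM, a ratio of 3.13 (2.23 to 4.48). Ackr1, which binds Ccl2, Ccl7 and other inflammatory chemokines, was at 0.639 and 1.75 FPKM. Its ratio was 2.74 (1.27 to 5.82), and its log2 ratio on the log2(FPKM + 1) scale was 0.75, not past 2-fold. Ccrl2, of the same list but short of the filter, was at 0.350 and 1.40 FPKM, a ratio of 4.01 (2.03 to 8.05). Ackr2, a scavenger of inflammatory CC chemokines, stayed under the floor of 3 fragments in both libraries.

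**Figure D5:**
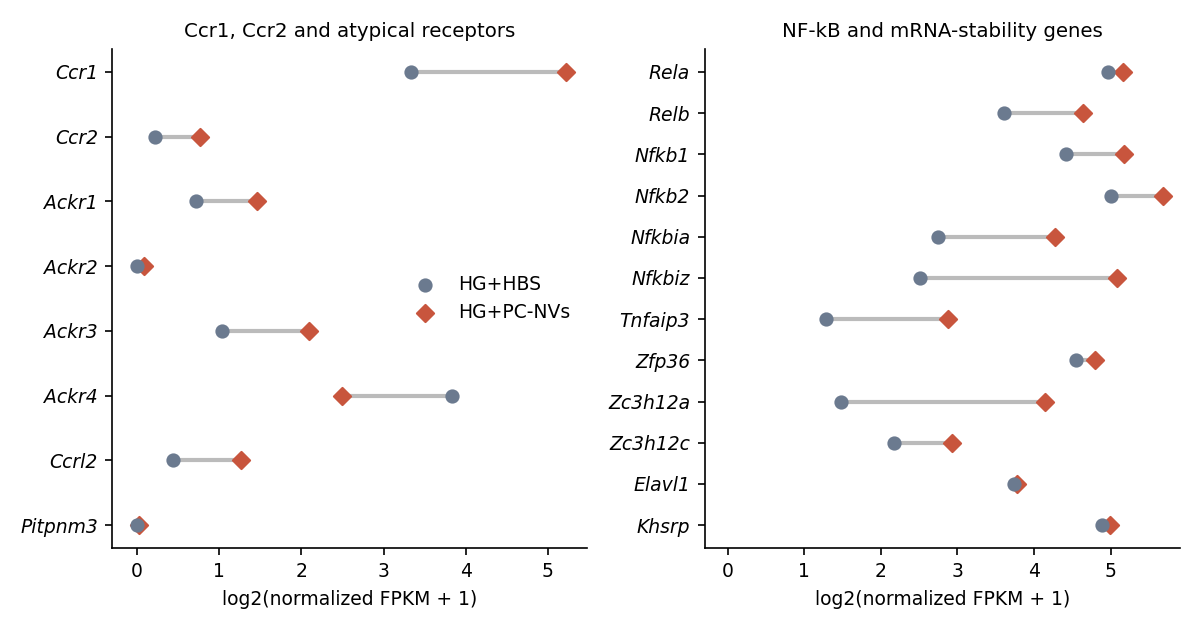
Levels, as log2(normalized FPKM + 1), of Ccr1, Ccr2 and the atypical chemokine receptors (left) and of NF-kB and mRNA-stability genes (right) in HG+HBS (circles) and HG+PC-NVs (diamonds). Ccr1 and Zc3h12a lie far to the right in HG+PC-NVs, Ackr4 lies to the left, and Rela, Elavl1 and Khsrp hardly differ.

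The 12 genes of NF-kB signalling and of mRNA stability were all tested. Of them, 5 were over 2-fold higher in the PC-NV library and 0 lower, beside 2.38% and 0.798% of all tested genes. The median log2 ratio of the 12 was 0.76. The lists counted here and below were chosen with earlier results of these data known, so nothing is read from their counts. Zc3h12a, an RNase that degrades cytokine mRNAs, was at 1.79 FPKM with vehicle and 16.6 FPKM with PC-NVs, a log2 ratio of 2.66. Nfkbiz, a nuclear cofactor of NF-kB, was at 4.69 and 33.0 FPKM, a log2 ratio of 2.58. The NF-kB inhibitors Tnfaip3 and Nfkbia had log2 ratios of 1.59 and 1.54, and the subunit Relb one of 1.04. The subunit Rela, at 30.2 and 34.8 FPKM, and the AU-rich element binding proteins Zfp36, Elavl1 and Khsrp, with log2 ratios of 0.26, 0.05 and 0.10, were not over 2-fold apart.

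Among 10 genes of chemokine processing and heparan sulfate, 9 were tested and 1 was over 2-fold higher, beside 2.38% of all tested genes, with a median log2 ratio of 0.04. It was Mmp3, a matrix protease that cleaves chemokines, at 2076 FPKM with vehicle and 4364 FPKM with PC-NVs. Mmp2, which trims Ccl7, was at 450 and 435 FPKM, Mmp14 at 304 and 309 FPKM, and the heparan sulfate carrier Sdc1 at 77.4 and 121 FPKM.

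Markers of macrophages and other myeloid cells, which make several of these chemokines, are given beside these values. Of the 12 listed, 10 were tested, 3 were over 2-fold higher in the PC-NV library and 1 lower, beside 2.38% and 0.798% of all tested genes, the median log2 ratio was 0.00, and the sum was 275 FPKM with vehicle and 293 FPKM with PC-NVs. The 3 higher were the macrophage antigen Adgre1 at 7.44 and 42.5 FPKM, Aif1 at 2.93 and 12.9 FPKM, and the neutrophil protein S100a9 at 0.00323 and 5.96 FPKM. The vehicle value of S100a9 was under its 3-fragment floor of 0.628 FPKM. S100a9 thus passed the filter only through the PC-NV library, where it had about 23.7 fragments. Mrc1 was lower, at 3.76 and 1.27 FPKM, and Ptprc, carried by all leukocytes, was at 1.44 and 1.67 FPKM, Csf1r at 8.39 and 6.20 FPKM and Lyz2 at 212 and 193 FPKM. The part of these cells in the chemokine values was not tested. Of 7 T, NK and B cell markers 0 passed the filter, with sums of 0.581 and 0.482 FPKM. Of 9 pericyte and smooth muscle markers, of interest since PC-NVs are made from pericytes, 7 were tested, 2 were over 2-fold higher (Rgs5 and Kcnj8) and 2 lower (Acta2 and Tagln), beside the same 2.38% and 0.798%, and their sum was 116 and 91.9 FPKM. The part of pericyte RNA in the chemokine values was not tested.

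The gene closest to Ccl2 in its pair of levels was S100a8, partner of S100a9 in calprotectin, at 238 FPKM with vehicle and 1579 FPKM with PC-NVs, a distance of 0.18 on the log2 scale over the 2 libraries. Closest to Ccl7 were Slpi, a secreted protease inhibitor, at 79.1 and 667 FPKM and a distance of 0.29, and the complement gene C3 at a distance of 0.50. With 2 libraries, likeness means only a similar pair of values.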

How the data were processed

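RNA from 1 HG+HBS and 1 HG+PC-NVs culture was sequenced as paired-end 100-base reads from poly(A)-selected stranded libraries. After trimming, the authors mapped reads to mm10 (TopHat), took counts (BEDTools) and FPKM (Cufflinks), and applied in edgeR a step named quantile normalization. Tool versions and the annotation are not given in the sources used here, nor whether counting used strand. The deposited values, 33299 rows per library, are on the scale log2(normalized FPKM + 1). That scale was read from the values, which reach 13.99. A normalization that matches the distributions of the 2 libraries would damp changes that most genes share. The deposited values do not share 1 distribution, as their FPKM sums to 521666 with vehicle and 580717 with PC-NVs. At which stage the step was applied is not known.

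Rows of a symbol were summed as FPKM, and the ratio was taken on the log2(FPKM + 1) scale, which understates changes of low genes. Genes with a mean of at least 1 counted as tested, and over 2-fold as called. Ratios printed with intervals are ratios of FPKM. Fragments were recovered from the spacing of low values times transcript length, shortened by 190 nt in HG+HBS and 205 nt in HG+PC-NVs. Then 73.1% and 74.1% of low values lay within 0.1 of a whole number, so fragment numbers are estimates. Intervals of ratios are Wilson and those of levels exact Poisson, and the floor is 3 fragments. Coordinates and transcripts are from GENCODE M21 (GRCm38). Named genes were all 10 members and the fixed lists, with the 5 genes nearest in level to Ccl2 and to Ccl7 computed. The members and lists were chosen with earlier results of these data known. The steps were tested on simulated data. Python 3.11.15 was used with pandas 2.3.3 and numpy 2.4.6. Alternatives were quantile, upper quartile and median scaling, a pseudocount of 0.1, other filters, a 4-fold threshold and the highest row per symbol.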

Additional observations from a re-analysis of the deposited data

How the results depend on the processing

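With 1 library per condition no replicate could be left out. No paired analysis was possible because each condition was sequenced once. Of the members, 7 stayed past 2-fold under every scaling, the pseudocount of 0.1 and the highest row per symbol, 8 with no filter, 5 of 5 tested with a mean log2 level of at least 3, and 3 past 4-fold. The 8 members with a counting interval gave 40 log2 ratios under the alternatives, and 38 stayed within the interval. The exceptions were quantile scaling for Ccl2 (2.82) and Ccl7 (2.55). Of the members over 2-fold higher 0 reversed, and Ccl11 could not count as reversed. Each of the 8 has 1 row, so taking the highest row could not change its ratio. Median centring shifted every ratio alike, by the median of -0.01. These settings could therefore hardly move a ratio out of its interval. Ccl20, which has no such interval, ranged from 1.23 with its highest row to 4.76 with a pseudocount of 0.1. Across all genes, 375 were past 2-fold. The 4-fold threshold left 82 (75 higher, 7 lower) and a mean of at least 3 left 209 (160 higher, 49 lower). A pseudocount of 0.1 gave 534 (344 higher, 190 lower), so 64.4% of calls were higher against 74.9%. Depth limits Ccl3, Ccl4, Ccl5, Ccl11 and Ccl20, which rest on few fragments in at least 1 library, and cannot resolve Ccl17.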

Other observations

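Next to Ccl17 on chromosome 8 lies Cx3cl1, the membrane-bound chemokine fractalkine, which was chosen after its values were seen. It was at 110 FPKM with vehicle and 56.8 FPKM with PC-NVs, a ratio of 0.514 (0.489 to 0.540), the opposite direction to the CC chemokines over 2-fold higher, and it did not pass 2-fold.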
